A study of Mus musculus with 19 samples.

Results

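The 9 genes described here are the 4 adult globin genes of the mouse (Hba-a1, Hba-a2, Hbb-bs and Hbb-bt) and 5 further genes of red cell precursors (Klf1, Alas2, Car1, Car2 and Slc4a1). They are 9 of the 50854 genes counted in bulk RNA-seq of cells sorted from mouse bone marrow as monocytes. They were selected by name from a list that was chosen on its fall in inflamed cells of these same libraries, so the fall itself is given here as a description, without a test. The cells came from female REP mice of 8 to 12 weeks, which carry fluorescent reporters for CCR1 and CCR2, among other chemokine receptors. The labels do not give the genotype of each library, and the study names these mice as the source of the sorted populations. Elsewhere in the methods such monocytes are gated as CD11b-positive, Ly6C-high, Ly6G-negative and SiglecF-negative. Groups were resting CCR1/2+ve monocytes (4 libraries), resting CCR2+ve monocytes (4), inflamed CCR1/2+ve monocytes (3, numbered 2 to 4), inflamed CCR2+ve monocytes (4) and a further 4 libraries labelled inflamed CCR1. Inflammation was raised by implanted pumps that released IL-3, IL-6, GM-CSF and IFN-α for a week. Pumps with PBS are also described, and whether resting mice carried one is not stated. The methods describe no sort for the inflamed CCR1 label. They do not say which mice, or how many, stand behind each library, so p-values measure the spread between libraries, which may be technical.

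Hemoglobin is a tetramer of α-like and β-like chains, each holding a heme group, and its transcripts come to dominate the RNA of a maturing erythroblast. Erythroblasts divide in the marrow around a central macrophage, lose their nucleus and leave as reticulocytes, which still hold globin RNA. GATA1 and KLF1 (the erythroid CACCC-box factor) switch on the globin genes together with genes for heme synthesis and for the red cell membrane. Monocytes are not a main source of hemoglobin. Red cells in the marrow suspensions were lysed with ACK buffer before staining, according to the methods.

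Promoter sequences are shown because these genes were all lower in inflamed monocytes. Of the 9 members, 6 have an entry among the RefSeq promoters (build GRCm38.p6), and Car1, Car2 and Slc4a1 have none. The 250 bases before the RefSeq start were searched on both strands for 4 words of GATA factors, which are AGATAA and its variant TGATAA, then AGATAG and its variant TGATAG. The CACCC box was searched as CCNCNCCC, and the CCAAT box by its letters. Each match is in capitals. The windows run 5′ to 3′ on the gene's strand. They are chr11:32283422-32283671 (+) for Hba-a1, chr7:103827929-103828178 (-) for Hbb-bs, chr7:103813924-103814173 (-) for Hbb-bt, chr8:84901732-84901981 (+) for Klf1 and chrX:150547167-150547416 (+) for Alas2.
Hba-a1: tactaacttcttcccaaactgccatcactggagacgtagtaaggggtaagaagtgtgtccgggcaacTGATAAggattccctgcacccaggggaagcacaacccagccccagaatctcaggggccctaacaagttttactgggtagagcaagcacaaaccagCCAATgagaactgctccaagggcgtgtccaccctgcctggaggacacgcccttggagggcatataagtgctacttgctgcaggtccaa
Hbb-bs: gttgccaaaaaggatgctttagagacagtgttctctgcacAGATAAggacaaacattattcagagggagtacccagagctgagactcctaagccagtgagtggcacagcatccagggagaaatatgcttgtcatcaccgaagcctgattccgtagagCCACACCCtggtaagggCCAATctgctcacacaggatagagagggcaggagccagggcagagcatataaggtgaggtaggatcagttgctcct
Hbb-bt: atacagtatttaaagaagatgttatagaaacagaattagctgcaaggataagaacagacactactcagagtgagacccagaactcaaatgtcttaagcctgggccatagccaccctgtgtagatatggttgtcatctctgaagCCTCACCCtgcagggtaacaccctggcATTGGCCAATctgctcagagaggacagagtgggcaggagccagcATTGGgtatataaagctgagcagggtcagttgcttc
Klf1: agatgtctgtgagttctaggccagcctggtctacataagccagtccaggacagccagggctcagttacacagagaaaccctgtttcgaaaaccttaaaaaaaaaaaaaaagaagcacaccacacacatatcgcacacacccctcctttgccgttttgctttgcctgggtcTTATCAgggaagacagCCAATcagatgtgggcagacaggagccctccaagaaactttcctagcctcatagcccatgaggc
Alas2: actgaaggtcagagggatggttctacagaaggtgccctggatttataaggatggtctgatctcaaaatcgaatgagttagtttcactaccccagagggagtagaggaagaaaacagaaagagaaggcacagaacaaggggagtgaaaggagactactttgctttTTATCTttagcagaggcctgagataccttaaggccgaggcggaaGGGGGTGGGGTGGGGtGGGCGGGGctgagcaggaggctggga

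A GATA match was found in 5 of the 6 windows, and any of the 4 GATA words stood in 26.5% of all 32841 promoter windows. Hba-a1 holds TGATAA at 183 to 178 bases before its start and Hba-a2 the same word at 186 to 181. The window of Hba-a2, not printed, is that of Hba-a1 but for a few bases at the ends. The counts over the 6 windows therefore hold this sequence for both genes. Hbb-bs holds AGATAA at 210 to 205 bases, Klf1 TGATAA on the opposite strand at 80 to 75 and Alas2 AGATAA on the opposite strand at 86 to 81. None of these GATA words was found in the window of Hbb-bt. CCNCNCCC was found in Hbb-bs, Hbb-bt and Alas2 (3 of 6, against 45.9% of all windows), with 4 matches on the opposite strand in Alas2, of which 3 overlapped. CCAAT was found in every window but that of Alas2 (5 of 6, against 33.9%). Matches of different words did not share bases. These matches are letters in a window and do not show that a factor is bound.

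The genes lie at GRCm38 chr11:32283511-32284465 (Hba-a1, + strand) and chr11:32296489-32297298 (Hba-a2, +), and at chr7:103826534-103828096 (Hbb-bs, - strand) and chr7:103812524-103813996 (Hbb-bt, -), by GENCODE M21. Counts cover the exons of each gene. The globin genes are near-copies within each pair: of all 35-base windows, 90.2% of the Hba-a2 transcript also occur in Hba-a1 transcripts and 70.5% of Hba-a1 in Hba-a2. The same share was 66.7% for Hbb-bs in Hbb-bt and 59.2% for Hbb-bt in Hbb-bs. The authors kept only reads that aligned to 1 place, so globin counts leave out reads that fit both copies, and the split within a pair is uncertain. The α-like genes share more of their windows than the β-like genes. Levels per length across the pairs, and the balance of β-like to α-like reads, are therefore uncertain as well. Klf1 lies at chr8:84901928-84905291 (+), Car1 at chr3:14766216-14808368 (-), Car2 at chr3:14886273-14900770 (+) and Slc4a1 at chr11:102348824-102366203 (-). Alas2 lies at chrX:150547375-150570638 (+), where genes on the other strand overlap 15.48% of its exonic bases, among them Apex2. Whether the counts use strand is not given in the sources used here.

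Between 22268658 and 30502009 reads were counted on genes per library (median 23706580). Levels are counts scaled to library size (CPM, with TMM factors over the 19 libraries). The 12 genes of a monocyte list, with Lyz2 the most abundant, summed to 32400 to 61300 CPM in the 15 libraries sorted as CCR1/2+ve or CCR2+ve. In the libraries labelled inflamed CCR1 they summed to 7870 to 12500 CPM, with Ccr2 at a mean of 5.82 CPM and Csf1r, the receptor of the monocyte growth factor, at 17.7 CPM. There the 10 neutrophil genes summed to 103000 to 151000 CPM, led by Ngp, a secondary granule protein, against at most 2990 CPM in any other library. The labelled cell type of these 4 libraries therefore goes against their markers, and they are called the libraries labelled inflamed CCR1 throughout. Their results are given apart from those of the other groups.

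At rest the 9 genes together took few reads. They held 74.2 to 301.0 CPM, taken over reads on genes without TMM factors, in the 8 resting libraries. The globins made up 86.7% to 93.9% of these. Summed globin level was 54.9 to 173 CPM (median 73.9) in resting CCR1/2+ve libraries and 88.9 to 288 CPM (median 116) in resting CCR2+ve libraries. In both resting groups, levels per length (CPM per kilobase of exon, RPKM) put Hbb-bs first, then Hba-a1, Hba-a2 and Hbb-bt. This order held in 4 of 4 libraries for every neighbouring pair of globins, although the ranges of neighbours overlapped across libraries. It is an order of reads with 1 alignment over the full exonic length, without correction for sequence shared between copies. In resting CCR2+ve monocytes the mean was 102 RPKM ± 55.8 (SD, n = 4) for Hbb-bs and 20.2 RPKM ± 12.1 for Hbb-bt. Car2, a cytosolic carbonic anhydrase, followed at 2.87 RPKM ± 0.782, below Hbb-bt without overlap. Alas2, the erythroid enzyme of the first step of heme synthesis, was at 1.42 RPKM ± 0.721, and Car1, a second carbonic anhydrase of red cells, at 1.02 RPKM ± 0.347. Klf1 was at 0.329 RPKM ± 0.161. Slc4a1, the band 3 anion exchanger of the red cell membrane, came last at 0.146 RPKM ± 0.0527. Neighbours among these 5 overlapped in range, except that Car1 stood above Klf1 in this group.

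**Figure D1:**
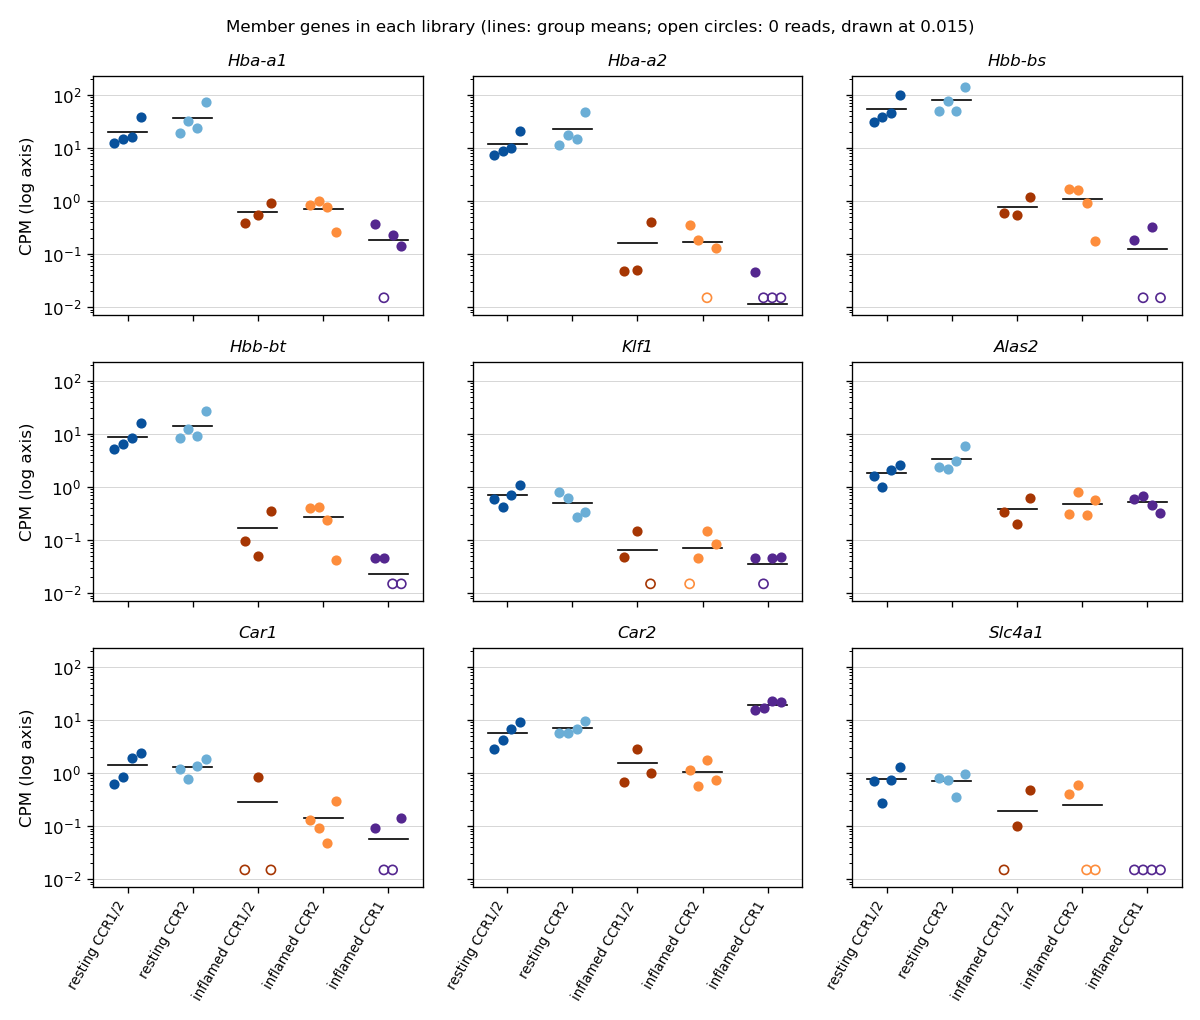
CPM (log axis) of each of the 9 genes in every library of the 5 groups. Points are libraries, lines are group means, and open circles are libraries with 0 reads, drawn at 0.015. The 4 globins lie between 5.09 and 140.0 CPM in resting libraries and at or below 1.68 CPM in inflamed ones, while Car2 is highest in the libraries labelled inflamed CCR1.

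At rest the split within each globin pair varied little between libraries, and the balance of β-like to α-like reads varied more. The β-like reads were 1.84 to 2.06 times the α-like reads in resting CCR1/2+ve libraries and 1.38 to 1.93 times in resting CCR2+ve libraries. As a share of all globin reads they were 66.1% (95% exact binomial interval 65.2% to 67.0%) and 61.0% (60.3% to 61.8%), counting error only. Reads that fit both copies of a pair are missing from these shares. Hba-a1 took 60.6% to 64.6% of α-like reads, and Hbb-bs took 83.9% to 86.3% of β-like reads. Replicate 4 of each resting group was the exception in level. It was the highest library in all 9 genes among resting CCR1/2+ve monocytes and in 8 of 9 among resting CCR2+ve monocytes, where Klf1 was highest in replicate 1. For Hba-a1, the resting CCR1/2+ve libraries 1 to 4 held 12.2, 14.6, 16.1 and 37.3 CPM, and the resting CCR2+ve libraries held 19.2, 31.5, 23.4 and 73.4 CPM. On the log2 CPM scale, the globins of replicate 4 stood 0.95 to 1.31 above their group means, in 8 of 8 values. The same number was thus high in both sorted populations.

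**Figure D2:**
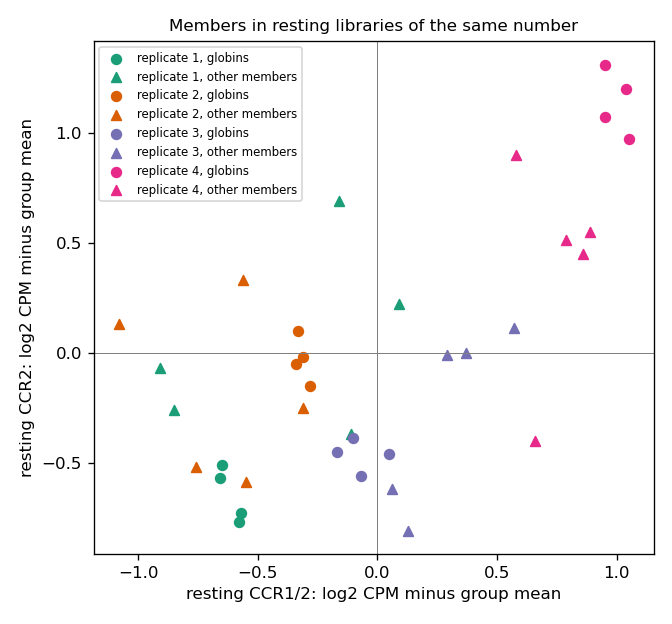
Deviation of each gene's log2 CPM from its group mean, in resting CCR1/2+ve libraries (x axis) against the resting CCR2+ve library of the same number (y axis). Circles are globins, triangles are the other 5 genes, and colours are replicate numbers. The globins of replicate 4 lie at 0.95 to 1.31 on both axes, apart from those of the other numbers.

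Inflamed monocytes held far fewer globin reads. Hbb-bs was at 50.0, 76.1, 48.2 and 140.0 CPM in resting CCR2+ve libraries and at 1.68, 1.63, 0.919 and 0.172 CPM in inflamed CCR2+ve libraries. In CCR1/2+ve monocytes it was at 30.5, 38.1, 45.5 and 98.8 CPM at rest and at 0.582, 0.55 and 1.19 CPM when inflamed. No inflamed library reached the lowest resting library. The mean level of Hbb-bs was 75.0-fold lower in inflamed than in resting CCR2+ve monocytes and 72.7-fold lower in CCR1/2+ve monocytes, as fitted. The same fitted folds were 54.1 and 34.2 for Hba-a1, 135.0 and 71.5 for Hba-a2, and 53.3 and 54.2 for Hbb-bt. Single libraries moved some of these folds by over 1.5 times. Without resting CCR2+ve replicate 4 the fold of Hba-a1 was 34.6 and that of Hba-a2 82.0, and without inflamed CCR2+ve replicate 1 that of Hba-a2 was 211. Inflamed CCR1/2+ve replicate 4 held 9 of the 11 reads of Hba-a2 and 8 of the 11 of Hbb-bt in its group. Without it the ratios were 241 for Hba-a2 (95% counting interval 66.7 to 2000) and 122 for Hbb-bt (41.5 to 591). In reads, the 4 globins together had 15427 in the 4 resting CCR2+ve libraries and 197 in the 4 inflamed ones. They had 11543 in the 4 resting CCR1/2+ve libraries and 112 in the 3 inflamed ones. Of what was left, Hbb-bs was 80.0% of β-like reads in inflamed CCR2+ve monocytes (95% exact binomial interval 71.7% to 86.7%) and 84.8% (84.0% to 85.5%) at rest. Hba-a1 was 80.5% of α-like reads there (69.9% to 88.7%), against 62.0% (60.7% to 63.2%) at rest. The intervals of Hba-a1 did not overlap between the states, while those of Hbb-bs did. These intervals cover counting error only, since the reads carry no molecular identifiers.

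**Figure D3:**
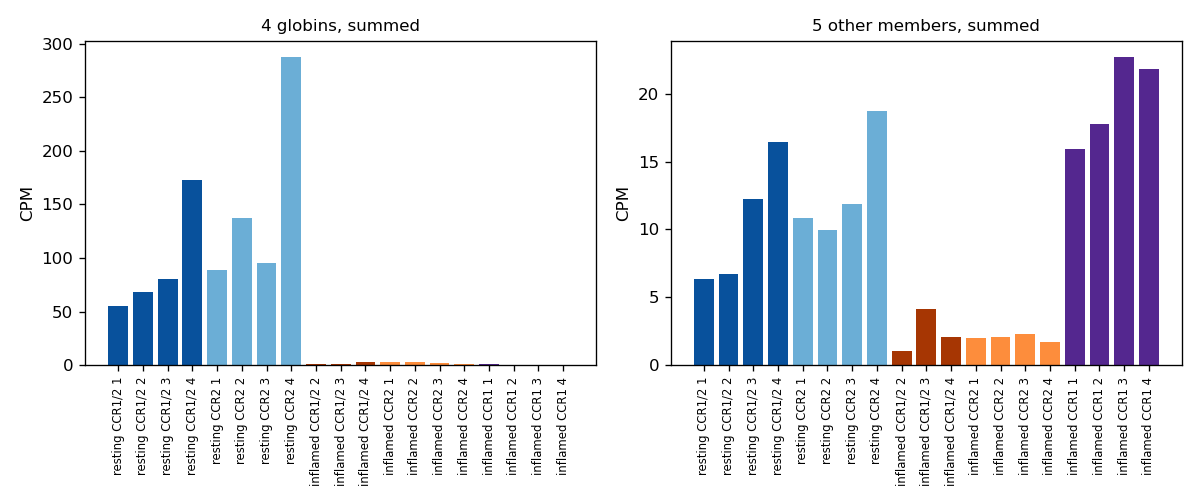
Summed CPM of the 4 globins (left) and of the other 5 genes (right) in each library, coloured by group. The highest inflamed library holds 3.28 CPM of globin and the lowest resting library 54.9 CPM, while the right panel is highest in the libraries labelled inflamed CCR1.

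The other 5 genes were also lower in inflamed monocytes, by less. Alas2 was at 2.41, 2.18, 3.12 and 5.94 CPM in resting CCR2+ve libraries and at 0.31, 0.79, 0.29 and 0.559 CPM in inflamed ones. The fitted level was 7.23-fold lower in inflamed CCR2+ve monocytes and 4.98-fold lower in CCR1/2+ve monocytes, without overlap in either. Klf1, with 7 to 36 reads per resting library and 0 to 3 per inflamed library of the same populations, was 7.26-fold and 11.2-fold lower. Car2 was at 5.67, 5.67, 6.79 and 9.68 CPM in resting CCR2+ve libraries and at 1.15, 0.558, 1.79 and 0.732 CPM in inflamed ones, a fitted 6.87-fold lower, and was 4.09-fold lower in CCR1/2+ve monocytes. Car1 was 8.79-fold and 5.45-fold lower, and in CCR1/2+ve monocytes its groups overlapped, since the inflamed replicate 3 held 17 reads and replicates 2 and 4 held 0. Slc4a1 was 2.99-fold and 4.0-fold lower with overlap in both. Here too single libraries counted. In CCR2+ve monocytes the fold of Car1 was 13.8 without inflamed replicate 4, that of Slc4a1 5.4 without inflamed replicate 2, and the ratio of Klf1 11.4 (counting interval 3.68 to 57.0) without inflamed replicate 3. In CCR1/2+ve monocytes, leaving out inflamed replicate 3 gave a fold of 7.24 for Car2, a ratio of 30.8 (5.38 to 1230) for Klf1 and at least 20.4-fold for Car1. Leaving out inflamed replicate 4 gave a fold of 3.62 for Car1 and a ratio of 15.4 (4.15 to 129) for Slc4a1. On the log2 scale the median difference of the 4 globins was -6.0 for CCR2+ve monocytes and -5.96 for CCR1/2+ve monocytes, and that of the other 5 genes -2.85 and -2.32. All 9 means were lower in inflamed monocytes of either population. Of the 18652 genes tested, 19.2% were called lower in inflamed CCR2+ve and 19.4% in inflamed CCR1/2+ve monocytes, and 9.37% and 9.16% were called higher (adjusted p below 0.05 and a fold of 2). Since these genes were chosen on this contrast, nothing is read from all 9 being lower. The median log2 fold change of all genes tested was -0.1 for the CCR2+ve population and -0.25 for the CCR1/2+ve population, a shift that the values above include. In bulk RNA, fewer cells of a type and less RNA per cell cannot be told apart.

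Of the marker lists of other cells, some summed lower in inflamed monocytes and others higher. The 8 stem and progenitor genes summed to 23.5 to 79.6 CPM in the 8 resting libraries and to 9.79 to 16.0 CPM in the 7 libraries of inflamed CCR1/2+ve and CCR2+ve monocytes. Among CCR1/2+ve cells 4 of the 8 had a lower mean when inflamed and 2 a higher one, and among CCR2+ve cells 6 and 1. Cd34 was the highest of them in resting CCR1/2+ve monocytes, with a mean of 16.1 CPM, and was at 1.04 CPM when inflamed. Meis1 was the highest in inflamed CCR1/2+ve (8.3 CPM) and inflamed CCR2+ve monocytes (11.3 CPM). The 16 genes of erythroblastic island macrophages summed to 303 to 541 CPM at rest and 737 to 972 CPM when inflamed, and most of the sum was Adgre1, which monocytes also express (among CCR2+ve cells 314 CPM at rest and 538 CPM inflamed, and among CCR1/2+ve cells 184 and 586 CPM). Without Adgre1 the sums were 132 to 245 CPM and 206 to 222 CPM in CCR1/2+ve cells, and 141 to 193 CPM and 275 to 367 CPM in CCR2+ve cells. In CCR1/2+ve cells 9 of the 16 had a lower mean when inflamed, among them Vcam1 (26.2 and 2.16 CPM), Slc40a1 (16.8 and 3.26 CPM) and Cd5l (2.69 and 0.0939 CPM). The other 7 had a higher mean, among them Hmox1 (56.2 and 123 CPM), Axl (12.4 and 37.2 CPM) and Siglec1 (1.59 and 7.65 CPM). In CCR2+ve cells 4 of the 16 had a lower mean when inflamed and 12 a higher one. The 9 megakaryocyte and platelet genes summed to 0.52 to 1.33 CPM at rest and 0.677 to 4.86 CPM in those inflamed libraries (Gp1bb had no read in these inflamed libraries). The 7 basophil and mast cell genes in the table summed to 8.16 to 32.3 CPM at rest and 130.0 to 259 CPM inflamed, where most of the sum was Prss34, a basophil protease (means of 142 and 156 CPM). The 10 neutrophil genes ranged over 586 to 2990 CPM at rest and 1200 to 2930 CPM in those inflamed libraries. The 9 B and plasma cell genes held 595 to 1010 CPM and 907 to 1690 CPM, and most of the sum was Ighm. The mean of Ighm was 888 CPM at rest and 1300 CPM inflamed among CCR2+ve cells, and 646 and 1240 CPM among CCR1/2+ve cells. In each population 7 of the 9 had a lower mean when inflamed and 2 a higher one, so the higher sum does not hold for most of the list. The 7 T and NK cell genes held at most 4.11 CPM, and the 5 eosinophil genes, of which Siglecf was the highest in each group, at most 5.28 CPM, in these 15 libraries. The part of these cells in the fall of the 9 genes was not tested.

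At rest, none of the 9 genes was called between the sorted populations (quasi-likelihood test of edgeR, p adjusted by Benjamini-Hochberg over all 18652 genes), where 2.34% of all genes were called higher in CCR1/2+ve and 1.9% lower. DESeq2 called 0 of 9 as well, and 1 of 9 had an unadjusted p under 0.05 with either tool. The globins were lower in CCR1/2+ve monocytes by 0.8 (Hba-a1), 0.87 (Hba-a2), 0.49 (Hbb-bs) and 0.6 (Hbb-bt) on the log2 scale, with SEs of 0.43 to 0.51, and the groups overlapped. For Hba-a1 the 95% interval of the difference ran from -1.96 to 0.36 (adjusted p = 0.35 by edgeR). Alas2 differed by -0.83 ± 0.36 (SE), with an adjusted p of 0.142 by edgeR, and its exact two-sided permutation p on CPM was 0.114 with n = 4 per group. Klf1 was higher in CCR1/2+ve monocytes by 0.55 (interval -0.45 to 1.55), Car1 by 0.23 and Slc4a1 by 0.15, and Car2 lower by 0.21, each within the spread of the libraries.

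Libraries of the same number deviated together between the resting populations, so the fit was also made with the replicate number as a block. There the globins and Alas2 passed the adjusted p while staying under a fold of 2. Hba-a1 was lower in CCR1/2+ve monocytes by 0.75 ± 0.1 on the log2 scale (SE, adjusted p = 4.32e-05 by edgeR with the block), and lower in each of the 4 pairs. The blocked difference was -0.78 ± 0.12 for Hba-a2 (adjusted p = 0.000173), -0.5 ± 0.1 for Hbb-bs (adjusted p = 0.0019), -0.58 ± 0.14 for Hbb-bt (adjusted p = 0.00604) and -0.81 ± 0.24 for Alas2 (adjusted p = 0.0183, edgeR throughout). For Klf1, Car1, Car2 and Slc4a1 the blocked adjusted p lay between 0.305 and 0.939. Of all 18652 genes, the blocked fit called 628 higher and 427 lower with the fold cutoff, against 437 and 355 without the block. The share of all genes that passed the adjusted p alone was not taken in the blocked fit. Nothing is therefore read from how many of the 9 genes passed it. The number of genes called with the fold cutoff stayed at 0 of 9, also when replicate 4 was left out of both groups, an alternative chosen after seeing the data.

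Between inflamed CCR1/2+ve and inflamed CCR2+ve monocytes none of the 9 genes was called by edgeR, and 0 of 9 had an unadjusted p under 0.05 by edgeR or DESeq2. DESeq2 gave an adjusted p for 3 of the 9 and called 0. Few genes were called at all, 0.102% higher and 0.0429% lower. The globins rested on 1 to 38 reads per library here, apart from a library at 0 for Hba-a2, and intervals were wide: the difference of Hbb-bs was -0.51 on the log2 scale with a 95% interval of -1.85 to 0.83, and that of Klf1 -0.1 with -2.77 to 2.56. With 3 libraries against 4, an exact two-sided permutation test cannot go below 0.0571.

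**Figure D4:**
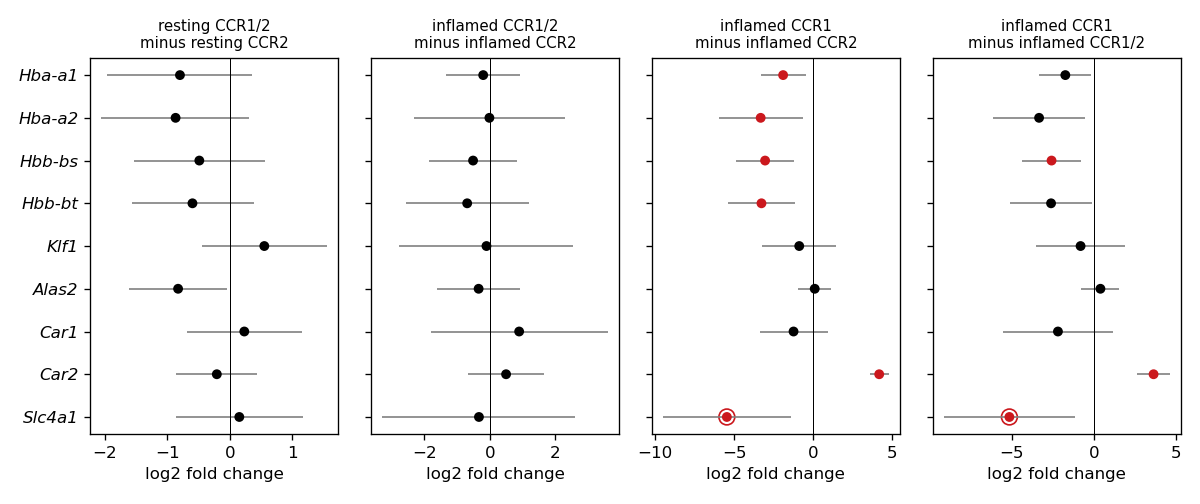
Log2 fold change of each gene in the 4 comparisons between sorted populations, with 95% intervals from the edgeR fit. Red points were called (adjusted p below 0.05 and a fold of 2), and ringed points have no read in the libraries labelled inflamed CCR1, so their fitted value depends on the prior count. Car2 is the gene called higher, at 4.17 and 3.65 in the panels of the inflamed CCR1 label.

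The libraries labelled inflamed CCR1 parted Car2 from the rest of the list. Car2 was at 15.2, 17.1, 22.2 and 21.3 CPM there (334 to 481 reads), against 1.15, 0.558, 1.79 and 0.732 CPM in inflamed CCR2+ve and 0.679, 2.85 and 1.01 CPM in inflamed CCR1/2+ve libraries. It stood above every resting library as well, the highest of which held 9.68 CPM. Against inflamed CCR2+ve monocytes the difference was 4.17 ± 0.28 on the log2 scale (SE, adjusted p = 2.32e-09 by edgeR), and the exact two-sided permutation p was 0.0286, the smallest that 4 against 4 allows. Against inflamed CCR1/2+ve monocytes it was 3.65 ± 0.43 (adjusted p = 0.000116 by edgeR). Per length, Car2 ranked first of the 9 genes in these libraries at 7.83 RPKM ± 1.39 (SD, n = 4), with Hba-a1 next at 0.227 RPKM ± 0.188 and no overlap. Of all genes tested, 14.4% were called higher than in inflamed CCR2+ve monocytes and 16.8% lower, and 13.2% higher than in inflamed CCR1/2+ve monocytes and 14.6% lower.

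The globins were lowest in these same libraries. Hbb-bs had 4, 0, 7 and 0 reads, against 38, 35, 19 and 4 in inflamed CCR2+ve libraries, a difference of -3.05 ± 0.84 on the log2 scale (SE, adjusted p = 0.00737 by edgeR), with overlap. Hbb-bt had 2 reads in the 4 libraries and 24 in the inflamed CCR2+ve ones, a ratio of 11.9 with a 95% counting interval of 2.94 to 104.0 (adjusted p = 0.0129 by edgeR). Hba-a1, with 16 reads against 62, was lower by 1.91 ± 0.67 on the log2 scale (adjusted p = 0.0268 by edgeR), and Hba-a2 had 1 read against 15 (ratio 14.8, counting interval 2.28 to 624.0, adjusted p = 0.037 by edgeR). Slc4a1 had 0 reads against 22, at least 7.25-fold lower when 3 reads over the group are taken as the floor (adjusted p = 0.0278 by edgeR), but inflamed CCR2+ve replicates 3 and 4 had 0 as well and the exact permutation p was 0.429. Klf1 (3 reads against 6), Alas2 (45 against 43) and Car1 (5 against 13) were not called. In all, 1 gene was called higher and 5 lower, and the exact permutation p was 0.0571 to 0.429 for the 5. DESeq2 called 1 higher and 3 lower, without Hba-a2 (adjusted p = 0.0693 by DESeq2) and Slc4a1 (0.233). With all 19 libraries in 1 fit, Hba-a1 and Hba-a2 were not called (adjusted p = 0.0814 and 0.126 by edgeR). Hbb-bs, Hbb-bt and Car2 were called whichever library was left out. The call of Hba-a1 was lost without inflamed CCR2+ve replicate 1 or 2 or inflamed CCR1 replicate 2 or 4 (adjusted p = 0.056 to 0.075 by edgeR), and that of Hba-a2 without inflamed CCR2+ve replicate 1 or 2 or inflamed CCR1 replicate 2, 3 or 4 (adjusted p = 0.0638 to 0.126 by edgeR). The call of Slc4a1 was lost without inflamed CCR2+ve replicate 1 or 2 or inflamed CCR1 replicate 1 (adjusted p = 0.0501 to 0.0774 by edgeR). With the replicate number as a block, the call of Hba-a2 was lost (adjusted p = 0.0661 by edgeR).

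Against inflamed CCR1/2+ve monocytes, 1 gene was called higher (Car2) and 2 lower. Hbb-bs had 12, 11 and 27 reads in the inflamed CCR1/2+ve libraries, above each library labelled inflamed CCR1, and differed by -2.57 ± 0.83 on the log2 scale (adjusted p = 0.0244 by edgeR). Without inflamed CCR1/2+ve replicate 4 its adjusted p by edgeR was 0.112. Slc4a1 had 0 reads against 13, at least 5.94-fold lower (adjusted p = 0.0402 by edgeR), with overlap, and its call was lost without inflamed CCR1/2+ve replicate 3 or 4 or any of the 4 libraries labelled inflamed CCR1 (adjusted p = 0.0613 to 0.231 by edgeR). DESeq2 did not call Slc4a1 (adjusted p = 0.0927 by DESeq2), and with all 19 libraries in 1 fit Hbb-bs was not called (adjusted p = 0.0852 by edgeR). In CPM, Hba-a1, Hba-a2 and Hbb-bt lay below every inflamed CCR1/2+ve library, but in reads the groups met, at 8 reads for Hba-a1 and 1 read each for Hba-a2 and Hbb-bt. They were not called (adjusted p = 0.0727, 0.0556 and 0.0868 by edgeR). Hba-a1 and Hba-a2 were called when inflamed CCR1/2+ve replicate 2 was left out (adjusted p = 0.0488 and 0.0347), Hba-a1 also without inflamed CCR1 replicate 1 (adjusted p = 0.0468), and each pair of copies when its reads were summed (adjusted p = 0.043 for the α pair and 0.0108 for the β pair, edgeR throughout).

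Of 77 further erythroid genes in the table, in 7 groups by function, 64 passed the filter of a mean of 1 read. Their counts over those that passed are descriptions. The embryonic globins Hba-x, Hbb-y, Hbb-bh1 and Hbb-bh2 had no read in any library, and 10 of the 77 had at most 3 reads in every library. In inflamed against resting CCR2+ve monocytes 21 of 64 were called lower and 5 higher, beside 19.2% and 9.37% of all genes. Their median log2 fold change was -0.35 (-0.36 over 63 genes with those at 0 in a group set to their bound), against -0.1 for all genes. In CCR1/2+ve monocytes 16 of 64 were called lower and 5 higher, beside 19.4% and 9.16% of all genes. Their median was -0.52 (-0.54 over 62 genes with bounds) against -0.25. The lists called lower overlapped in 13 genes, of 21 and of 16. Heme synthesis had 5 of 11 genes lower among CCR2+ve cells and 4 of 11 among CCR1/2+ve cells, and none higher. Fech, which puts the iron into heme, was at 90.1 CPM ± 11.0 in resting and 13.0 CPM ± 1.71 in inflamed CCR2+ve monocytes (SD, n = 4), a log2 difference of -2.86 ± 0.13 (SE, adjusted p = 1.9e-10 by edgeR). In CCR1/2+ve monocytes this difference was -2.88 ± 0.16 (adjusted p = 5.55e-08 by edgeR).

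Among the late red cell genes, 4 of 14 tested were called lower among CCR2+ve cells and 3 of 14 among CCR1/2+ve cells, with 0 and 1 higher. Beside these counts and those below, 19.2% (CCR2+ve) and 19.4% (CCR1/2+ve) of all genes were called lower. The shares called higher were 9.37% and 9.16%. Mkrn1, a ubiquitin ligase, fell from 258 CPM ± 38.4 to 32.5 CPM ± 8.06 in CCR2+ve monocytes (-3.05 ± 0.17, adjusted p = 1.81e-09 by edgeR) and by 2.51 ± 0.15 on the log2 scale in CCR1/2+ve monocytes (adjusted p = 1.16e-07 by edgeR). In resting CCR2+ve monocytes the means of Mkrn1 and Fech (90.1 CPM) stood above that of Hbb-bs (78.6 CPM), the highest globin. In resting CCR1/2+ve monocytes the means were 147 CPM (Mkrn1), 71.7 CPM (Fech) and 53.2 CPM (Hbb-bs). Which cells held the reads of Mkrn1 and Fech was not tested. Of the erythroid transcription factors, 5 of 10 were lower in each population, with 1 and 0 higher. Of the membrane and skeleton genes 5 of 15 and 4 of 15 were lower and 2 of 15 higher in each. Epb41, protein 4.1 of the membrane skeleton, rose from 45.6 CPM ± 1.83 to 109 CPM ± 1.36 in CCR2+ve monocytes (1.18 ± 0.09, adjusted p = 5.37e-08 by edgeR). Slc2a1, the glucose transporter GLUT1, rose by 1.29 ± 0.12 (adjusted p = 4.18e-07) and Steap3, a ferric reductase, by 1.63 ± 0.11 (adjusted p = 1.16e-08, both by edgeR). In CCR1/2+ve monocytes Epb41, Slc2a1 and Steap3 rose by 1.3 ± 0.11, 1.48 ± 0.14 and 1.62 ± 0.17 (adjusted p by edgeR at most 1.15e-05). Of the erythropoietin and iron genes 1 of 4 was lower among CCR2+ve cells and 0 of 4 among CCR1/2+ve cells, with 1 higher in each (Steap3). Of the 9 other carbonic anhydrases tested 1 and 0 were lower, with 1 higher in each (Car5b). Gata1, the erythroid master factor, was picked after its values were seen and had 3 to 21 reads per library at rest. It had 5 to 13 in inflamed CCR1/2+ve and 4 to 14 in inflamed CCR2+ve monocytes, and 5 to 19 in the libraries labelled inflamed CCR1.

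**Figure D5:**
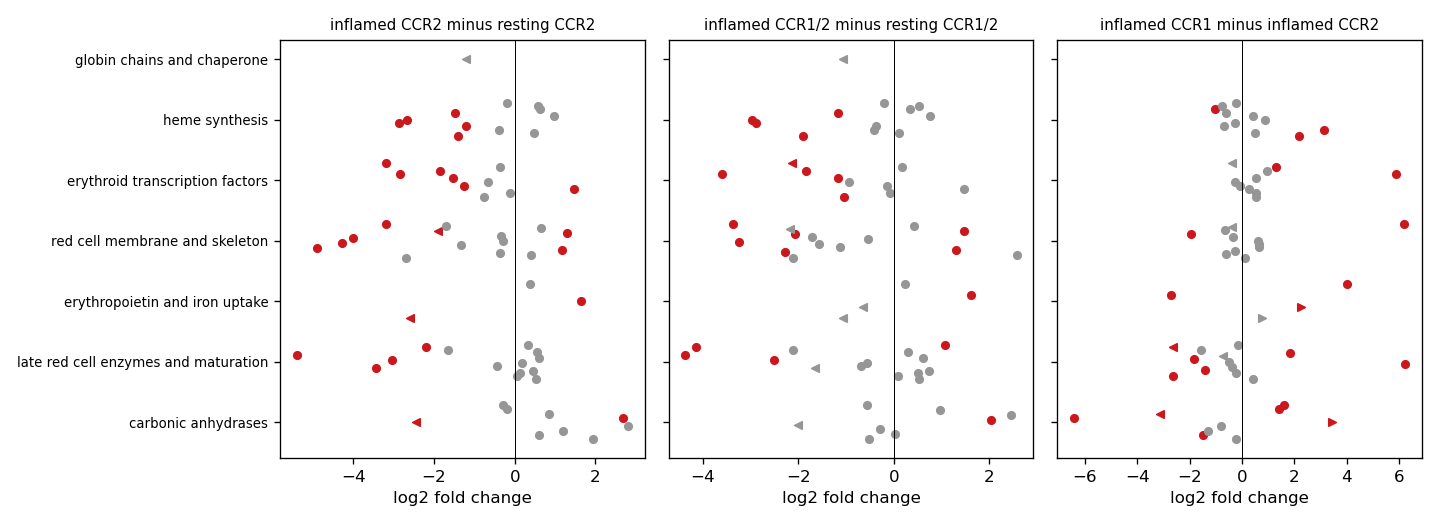
Log2 fold change of the further erythroid genes by group of function in 3 comparisons, with genes at or under 3 reads in both groups left out. Red marks were called (adjusted p below 0.05 and a fold of 2), and triangles are genes with no read in 1 group, drawn at their bound. Called genes lie on both sides of 0 in each panel, mostly lower in the inflamed against resting panels (21 and 16 genes) and on both sides in the panel of the inflamed CCR1 label (12 higher and 10 lower).

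The libraries labelled inflamed CCR1 held some erythroid genes at high level and others near 0. Against inflamed CCR2+ve monocytes 12 of 64 were called higher and 10 lower, beside 14.4% and 16.8% of all genes, with a median of -0.03 (-0.21 over 58 genes with bounds) against -0.01. Myb, a factor of early progenitors, was at 91.3 CPM ± 5.28 against 1.54 CPM ± 0.45 (5.9 ± 0.18 on the log2 scale, adjusted p = 7.58e-14 by edgeR). Alas1, the housekeeping counterpart of Alas2, was at 1299 CPM ± 57.9 against 150.4 CPM ± 20.7 (3.12 ± 0.11, adjusted p = 5.8e-13 by edgeR). Xk, a protein of the red cell membrane, was at 20.4 CPM ± 0.483 against 0.273 CPM ± 0.101 (6.2 ± 0.24, adjusted p = 1.2e-12 by edgeR). Prdx2, a peroxidase, was lower by 1.83 ± 0.1 on the log2 scale, Steap3 by 2.7 ± 0.16 and Slc2a1 by 1.95 ± 0.13 (adjusted p by edgeR of 1.5e-10, 4.43e-10 and 9.97e-10). Of the 9 other carbonic anhydrases tested, 3 were called higher (Car9, Car3 and Car7) and 3 lower (Car5b, Car13 and Car6). Against inflamed CCR1/2+ve monocytes 12 of 64 were higher and 8 lower, beside 13.2% and 14.6%, with Myb, Alas1 and Xk again those of the smallest p among the higher and Prdx2, Slc2a1 and Blvrb, a biliverdin reductase, among the lower. These comparisons share the 4 libraries labelled inflamed CCR1. In them the stem and progenitor genes summed to 149 to 204 CPM, the basophil and mast cell genes to 870 to 1020 CPM and the eosinophil genes to 39.1 to 90.3 CPM. The 16 genes of erythroblastic island macrophages summed to 926 to 1200 CPM there. Of these, 3 had a mean over 10 CPM: Slc40a1 (538 CPM), Vcam1 (464 CPM) and Adgre1 (19.1 CPM). The part of the cells of these lists in the level of Car2 was not tested.

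Between resting CCR1/2+ve and CCR2+ve monocytes 2 of the 64 genes were called (3.12%), beside 2.34% higher and 1.9% lower of all genes. The count was thus near the share of all genes. Myb was higher (20.2 CPM ± 6.87 against 10.5 CPM ± 3.44, 1.02 ± 0.27 on the log2 scale, adjusted p = 0.0213 by edgeR) and Tspan33, a tetraspanin, lower (-1.42 ± 0.44, adjusted p = 0.0448 by edgeR), with overlap in both. Leaving out 1 library gave 0 to 3 calls, with 0 without resting CCR2+ve replicate 1, 3 or 4 or resting CCR1/2+ve replicate 2. Between inflamed CCR1/2+ve and inflamed CCR2+ve monocytes 0 of 64 were called by edgeR (5 at an unadjusted p under 0.05) and by DESeq2 (4), with a median log2 fold change of 0.0 against -0.03 for all genes. Of all genes, 0.102% were called higher and 0.0429% lower by edgeR.

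Within groups, none of the 10 genes whose library-to-library pattern was most like that of the globins was in the erythroid lists. Over 19 libraries, each centred on its group, the 10 highest Pearson correlations with the mean log2 CPM of the 4 globins, among 12810 genes with a mean of 10 reads, ran from 0.83 for Anapc16, a subunit of the anaphase-promoting complex, to 0.77. Sumo2 (0.82), 1110008P14Rik (0.8), Pmm1 (0.79), Ccdc61 (0.78), Aurkaip1 (0.78), Vsig10, Gas2, Dnajc4 and Gm3379 (0.77 each) made up the rest. Of the erythroid genes, Slc4a1 ranked 46 (0.71), Gpx1 71 (0.68) and Alas2 817 (0.52). Points share libraries, depth and group, and no test was made.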

How the data were processed

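RNA from sorted bone marrow monocytes was made into libraries with a low-input mRNA kit and sequenced paired-end. The deposited table holds raw read counts per gene, which the authors made with STAR 2.7.10a on GRCm38, keeping reads with 1 alignment. Its 19 columns that match the labels were used and 1 column was not. Here, counts were tested with edgeR 4.0.16 in R 4.3.3 (TMM, robust quasi-likelihood, pairs of groups, no covariates), over the 18652 genes whose mean was 1 read or more. Genes were called at an adjusted p (Benjamini-Hochberg) under 0.05 and a log2 fold change of at least 1. Fitted folds use the default prior count of edgeR and log2 CPM values a prior count of 2, and DESeq2 1.42.0 was an alternative. CPM and RPKM use TMM-scaled library sizes and exonic length. Intervals are at 95%, and the floor is 3 reads over a group. Depth was 22268658 to 30502009 counted reads per library.

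The 9 genes, the further lists and the tests were chosen with earlier results of these data known. Named genes are the 9, and of the further genes the 3 with the smallest p in each direction among those called. Some genes that this rule or the lists hold are not reported here by name. Pairs of libraries within a group differed by more than sampling noise (chi-square per degree of freedom 11.1 to 73.4 over 27 pairs), so none was counted once. Replicate numbers come from the labels. Deviations from group means correlated at 0.3 to 0.45 between same-numbered resting libraries (4 pairs, 11373 genes) and at 0.11 to 0.24 between the libraries labelled inflamed CCR1 and inflamed CCR2 (4 pairs). Numbers were therefore taken as pairing these samples, and not in the other comparisons, where some pairs were at or below 0.1. The edgeR step was tested on simulated data.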

Additional observations from a re-analysis of the deposited data

Results flagged for a closer look

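In 4 of 35 sets of 4 libraries (9 genes in 4 groups of 4, without the set in which every library was at 0), 1 library lay far from the other 3 by Dixon's criterion. Its nominal rate of about 1 set in 20 is for continuous values and does not hold for sets of 0 and 1 reads. Sets also share libraries, so the 4 of 35 cannot be set against that rate. Hba-a1 in resting CCR1/2+ve replicate 4 was at 37.3 CPM, where the other 3 libraries held 12.2 to 16.1 CPM. Hba-a2 in resting CCR2+ve replicate 4 was at 47.8 CPM, where the others held 11.2 to 17.3 CPM. Hba-a2 in inflamed CCR1 replicate 1 was at 0.0455 CPM, which is 1 read, where the others held 0. Klf1 in inflamed CCR1 replicate 2 was at 0.0 CPM, where the others held 1 read each.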

How the results depend on the processing

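Of 172 alternatives for counts and medians, 150 stayed within their limits, and of 543 for single genes 509 kept their call, 28 lost it, 6 gained one and 0 changed direction. Against inflamed CCR2+ve, the libraries labelled inflamed CCR1 had 6 of the 9 genes called, 1 with edgeR's own filter (which kept 2 of 9) and 3 to 6 with 1 library left out (3 without inflamed CCR2+ve replicate 1 or 2). Against inflamed CCR1/2+ve, 3 became 1 with the replicate block, where the numbers pair no samples, and 1 to 5 with 1 library left out (1 without inflamed CCR1/2+ve replicate 4, 5 without replicate 2). The further erythroid genes called at rest (2) became 10 without the fold cutoff, 0 without the filter on low counts, 0 with all 19 libraries in 1 fit, 0 without replicate 4 in both groups (chosen after seeing the data) and 0 to 3 with 1 library left out. Without the fold cutoff the libraries labelled inflamed CCR1 had 36 of these called against inflamed CCR2+ve (22 with it) and 32 against inflamed CCR1/2+ve (20). In inflamed CCR2+ve monocytes 21 lower became 13 with edgeR's filter. The median log2 difference of the 9 genes between inflamed and resting was -3.14 in CCR2+ve (-3.79 to -2.94 with 1 library left out, -3.79 without inflamed replicate 4) and -3.49 in CCR1/2+ve monocytes (-5.02 to -3.21, -5.02 without inflamed replicate 3, and -2.45 with the copies of each globin summed, which leaves 7 values). Beyond what is given here and beside the results, the replicate block changed no count by over 1.5 times. Other causes were not tested. Inflamed globin counts of 0 to 38 reads per library limit their precision.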
